A study of Homo sapiens with 8 samples.

Results

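FN1, THBS1, THBS2, TNC, POSTN, SPARC, FBN1, ELN, FBLN1 and FBLN5 encode secreted glycoproteins of the extracellular matrix and of elastic fibres. These 10 genes were taken by gene name from a table of 58870 genes, and 8 of them were abundant enough to be tested. ELN and POSTN were at or near 0 reads. RNA was measured in BJ-HRAS cells, a derivative of the BJ skin fibroblast line, in 8 libraries. The groups were SNORA13 knockout (KO) clones 66 and 69 with 4-OHT, wild-type (WT) clones 15 and 54 with 4-OHT, the same KO clones without 4-OHT, and the same WT clones without it. 4-OHT is (Z)-4-hydroxytamoxifen, an oestrogen receptor ligand, given at 100 nM for 7 days. The labels do not describe the HRAS construct. As background, 4-OHT is commonly used to switch on oestrogen receptor fusions of RAS, and lasting RAS signalling can drive fibroblasts into senescence. SNORA13 belongs to the H/ACA box small nucleolar RNAs, guides for the conversion of uridine to pseudouridine. Each group had 2 libraries, 1 from each clone. A KO minus WT difference therefore includes whatever else sets these clones apart, and p-values measure the spread between clones. The columns of the table carry the clone number with or without a minus sign. Columns with the sign were taken to be those without 4-OHT, which no label spells out, and every direction of a 4-OHT response rests on that reading.

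Fibronectin (FN1) is laid down by fibroblasts as fibrils that bind integrins and that other matrix proteins need for their assembly. Thrombospondins, tenascin C, periostin and SPARC are called matricellular proteins, because they tune how cells attach to the matrix and respond to growth factors more than they bear load. Fibrillin 1 (FBN1) forms the microfibrils onto which tropoelastin (ELN) is deposited, and fibulins such as FBLN5 help to place and crosslink it. Senescent fibroblasts are known for a changed matrix, with less fibrous protein made and more protease secreted.

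Library totals were 22057911 to 24908491 reads. SNORA13 had 0 reads in all 4 KO libraries and 4 to 7 reads in the 4 WT libraries, where 0 reads leave room for up to 3 by counting error alone. RN7SL1 and RN7SL2, the RNA part of the signal recognition particle, took 16.1% and 14.8% of reads in KO clones 66 and 69 with 4-OHT, 9.72% and 15.4% in WT clones 15 and 54 with 4-OHT, and 9.18% to 10.1% in the 4 libraries without 4-OHT. Of 16 fibroblast markers 14 were tested, and PDPN was at 0 reads in every library. The summed fibroblast marker level was 3524 to 3951 RPKM in KO with 4-OHT, 3487 to 3963 in WT with 4-OHT, 4828 to 4998 in KO without it and 5284 to 5521 in WT without it. Single fibroblast markers moved both ways with 4-OHT, 5 called higher and 9 lower in KO and 4 higher and 8 lower in WT. RPKM, the reads per kilobase of transcript scaled to a common library total, is here divided by a library factor (TMM). Of 10 epithelial markers 4 were tested, KRT5 and KRT14 were at 0, and the sums were 265 to 275 RPKM, 281 to 295, 489 to 546 and 776 to 800 in the same group order. KRT18 carried nearly all of these sums, with 257.6 and 265.9 RPKM in KO with 4-OHT, 276.0 and 288.2 in WT with 4-OHT, 469.0 and 526.1 in KO without it and 778.6 and 756.8 in WT without it. KRT8 measured 4.67 to 8.96 RPKM with 4-OHT and 17.5 to 20.0 RPKM without it. MUC1 measured at most 0.132 RPKM with 4-OHT and 0.677 to 1.68 RPKM without it. EPCAM, CDH1, KRT19, CLDN4 and ESRP1 stayed below 1 RPKM in every library. The 8 endothelial markers summed to at most 1.5 RPKM in any library. The 9 immune markers summed to at most 16.7 RPKM, with CD68 at 0, and the 8 melanocyte or neural markers to at most 20.0 RPKM. The 6 smooth muscle markers, all tested, summed to 80.1 to 102 RPKM in KO with 4-OHT and 170 to 189 in WT with 4-OHT. Without 4-OHT they summed to 334 to 349.5 in KO and 322 to 391.8 in WT. With 4-OHT, 4 were called lower and 1 higher in KO, and 3 lower and 1 higher in WT. TAGLN carried most of these sums. SMTN rose with 4-OHT, from 1.17 and 0.93 to 14.7 and 12.3 RPKM in KO clones 66 and 69. In WT clones 15 and 54 SMTN rose from 2.07 and 3.55 to 16.7 and 19.2 RPKM. All 6 proliferation markers were higher with 4-OHT in KO, where they summed to 309 and 310 RPKM, against 66.7 and 70.0 without it. In WT, 1 of the 6 was called higher and the sums were 155 and 192 RPKM with 4-OHT, against 125 and 168 without it. The part of these shifts in the results that follow was not tested. In bulk RNA, fewer cells of a type and less RNA per cell cannot be told apart.

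With 4-OHT most of the matrix genes fell in each genotype and TNC rose. In the KO clones 6 of the 8 tested genes were called lower with 4-OHT and 1 higher, where 26.9% of all 16542 tested genes were called lower and 28.7% higher. In the WT clones 6 were likewise lower and 1 higher, where 23.7% of all genes were called lower and 25.2% higher. In either direction, 55.7% of all tested genes were called in KO and 48.9% in WT. A call is a limma adjusted p below 0.05 over all tested genes. The median log2 difference of the 8 genes was -0.94 in KO and -0.88 in WT, beside 0.00 and 0.00 for all tested genes. The gene that did not pass was FN1 in KO and FBLN5 in WT. The reads of all 10 genes together made up 0.931% and 0.866% of the library in KO clones 66 and 69 with 4-OHT, and 1.07% and 0.811% in WT clones 15 and 54 with 4-OHT. Without 4-OHT they made up 3.23% and 2.82% in the KO clones and 2.48% and 3% in the WT clones. THBS1 supplied 38.4% to 45.5% of these reads with 4-OHT and 62.1% to 72.8% without it.

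**Figure D1:**
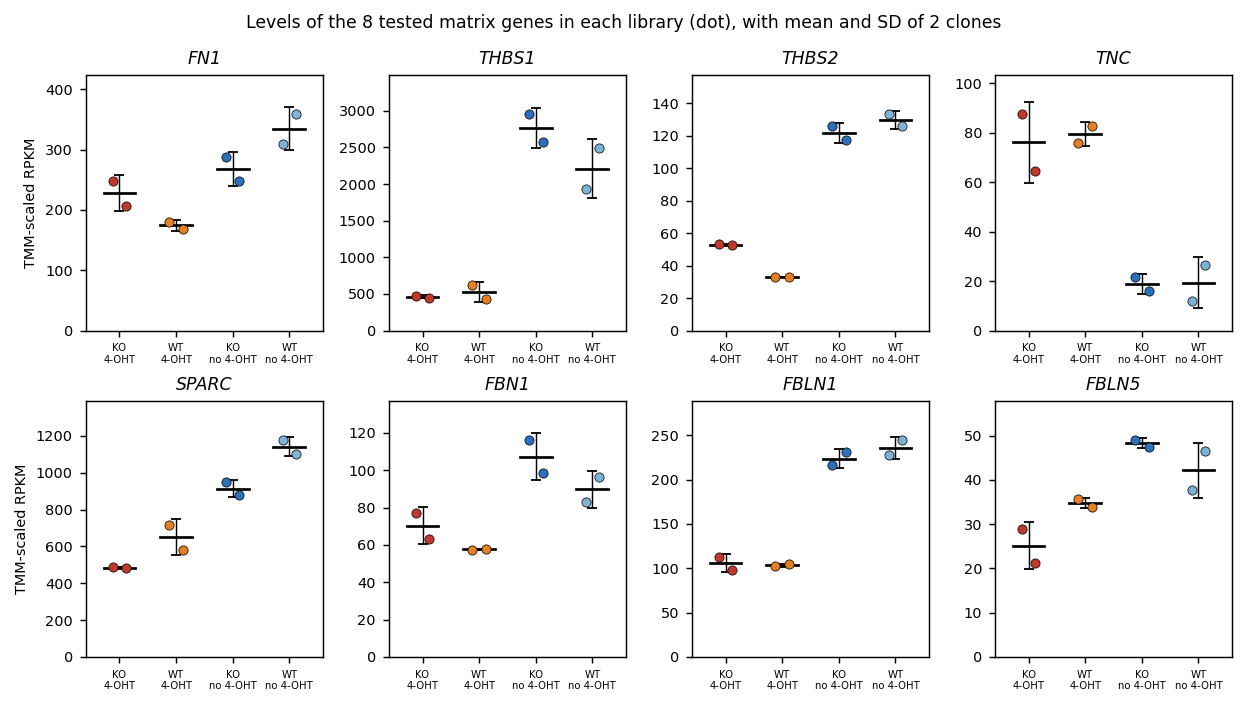
TMM-scaled RPKM (y axis, from 0) of the 8 tested genes in each library, by genotype and 4-OHT. Dots are clones, and the bar and whiskers are the mean and SD of 2 clones. TNC is high in the 4 libraries with 4-OHT, at 64.4 to 87.7 RPKM, and THBS1 is low there, at 434 to 618 RPKM.

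Fibronectin, the main adhesive glycoprotein of fibroblast matrix, is encoded by FN1 (ENSG00000115414.19) on chromosome 2 at 215360440 to 215436172, minus strand (GRCh38). FN1 measured 248.8 and 207 RPKM in KO clones 66 and 69 with 4-OHT, against 288 and 248 RPKM in the same clones without it. These KO ranges overlap, since clone 66 with 4-OHT lies just above clone 69 without it. Within the same clone the log2 difference was -0.21 in clone 66 and -0.26 in clone 69. In WT clones 15 and 54 FN1 measured 181 and 168 RPKM with 4-OHT, against 309 and 360 RPKM without it, with no overlap. FN1 fell 1.91-fold in WT (log2 -0.94 ± 0.12, SE; limma adjusted p = 0.000756). In KO its log2 difference was -0.24 ± 0.12 (limma adjusted p = 0.144), with a 95% interval of -0.53 to 0.05.

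The thrombospondins are large matricellular glycoproteins that bind CD47, CD36 and integrins, and THBS1 is a known activator of latent TGF-beta. THBS1 (ENSG00000137801.10; chromosome 15 at 39581079 to 39599466, plus strand) measured 478 and 450 RPKM in KO clones 66 and 69 with 4-OHT, against 2962 and 2570 RPKM without it. It measured 618 and 434 RPKM in WT clones 15 and 54 with 4-OHT, against 1930 and 2492 RPKM without it. No library with 4-OHT came within the range of those without it. THBS1 fell 5.94-fold in KO (log2 -2.57 ± 0.19, SE; limma adjusted p = 3.38e-05) and 4.24-fold in WT (log2 -2.08 ± 0.19, limma adjusted p = 0.000121). In KO, 356 of 16542 genes had a more negative log2 difference, and in WT 481 had. Within single clones the log2 difference was -2.63 and -2.51 in KO clones 66 and 69 and -1.64 and -2.52 in WT clones 15 and 54. The smallest of these falls was in WT clone 15. With signal recognition particle RNA left out the WT difference was -2.09, beside -2.08 with it. Without 4-OHT, THBS1 ranked 7 of 12709 tested protein-coding genes by mean RPKM in KO and 8 in WT. With 4-OHT it ranked 114 in KO and 91 in WT. Intronic and antisense genes annotated within THBS1 held at most 528 reads in any library, where THBS1 held at least 74050.

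THBS2 (ENSG00000186340.15; chromosome 6 at 169215780 to 169254044, minus strand) encodes a close relative of THBS1. THBS2 measured 53.1 and 52.5 RPKM in KO clones 66 and 69 with 4-OHT, against 126 and 117 RPKM without it. It measured 33.2 and 32.8 RPKM in WT clones 15 and 54 with 4-OHT, against 134 and 126 RPKM without it. Clones of a treated group lie within 1 RPKM of each other, and the KO and WT pairs are apart. THBS2 fell 2.30-fold in KO (log2 -1.20 ± 0.07, SE; limma adjusted p = 1.51e-05) and 3.92-fold in WT (log2 -1.97 ± 0.07, limma adjusted p = 3.12e-06).

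Tenascin C, a hexameric glycoprotein seen in wounds, tumour stroma and embryonic tissue, was the gene of the set that rose. TNC (ENSG00000041982.16; chromosome 9 at 115019578 to 115118257, minus strand) measured 87.7 and 64.4 RPKM in KO clones 66 and 69 with 4-OHT, against 21.5 and 16.0 RPKM without it. In WT clones 15 and 54 it measured 75.8 and 82.7 RPKM with 4-OHT, against 12.1 and 26.6 RPKM without it. The WT clones without 4-OHT differed more from each other than those of any other group did, relative to their mean. TNC rose 4.04-fold in KO (log2 2.01 ± 0.34, SE; limma adjusted p = 0.00193) and 4.4-fold in WT (log2 2.14 ± 0.34, limma adjusted p = 0.00183). Within single clones the log2 rise was 2.02 and 2.01 in KO clones 66 and 69 and 2.64 and 1.63 in WT clones 15 and 54.

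Of the 10 genes, 9 were matched in the table of RefSeq promoters used here (build GRCh38.p14), and ELN is only named. The windows, from 250 bases before to 50 after the start, were searched on both strands for GGAATG, the core of the site of TEAD factors, which on the other strand reads CATTCC. It was present in 4 of the 9, FBN1, SPARC, THBS1 and THBS2, and in 14% of 35116 promoters. THBS1 held it at 46 to 41 bases before the start. THBS2 held it at 91 to 86 and, on the other strand, at 103 to 98 bases before the start. None of these matches overlapped another motif searched, and the TNC window held none. The RefSeq starts can lie inside the gene spans given above, as for THBS2 and TNC, whose spans reach 169254044 and 115118257. Both THBS2 matches and part of the TNC bases printed below therefore fall within the annotated gene. The 250 bases before the start are printed 5′ to 3′ for the 2 thrombospondin genes, which had the largest falls of the set in WT and in KO, and for TNC, which rose. Capitals mark GGAATG on either strand.
THBS1 (chr15:39580829-39581078, plus strand): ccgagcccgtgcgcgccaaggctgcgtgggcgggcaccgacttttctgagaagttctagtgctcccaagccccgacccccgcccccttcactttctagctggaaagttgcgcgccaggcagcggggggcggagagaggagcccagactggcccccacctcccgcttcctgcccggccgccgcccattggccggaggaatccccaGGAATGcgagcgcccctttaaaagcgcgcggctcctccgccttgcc
THBS2 (chr6:169253847-169254096, minus strand): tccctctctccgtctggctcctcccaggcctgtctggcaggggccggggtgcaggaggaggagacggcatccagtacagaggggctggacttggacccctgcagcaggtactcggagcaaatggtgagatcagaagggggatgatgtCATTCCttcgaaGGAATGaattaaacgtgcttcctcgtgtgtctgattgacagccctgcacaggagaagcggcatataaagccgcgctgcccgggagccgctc
TNC (chr9:115118158-115118407, minus strand): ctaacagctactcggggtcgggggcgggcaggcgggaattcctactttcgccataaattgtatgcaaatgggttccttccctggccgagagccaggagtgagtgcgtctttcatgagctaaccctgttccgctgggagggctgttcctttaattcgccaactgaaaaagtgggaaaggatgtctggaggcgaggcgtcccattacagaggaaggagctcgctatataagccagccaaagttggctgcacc

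The TATA box TATAAA was present in the windows of FBLN5, POSTN and THBS2, 3 of 9, beside 11.5% of all promoters. The SP1 motif GGGCGG was present in 5 of 9, FBLN1, FBLN5, FN1, THBS1 and TNC, beside 45% of all. CCAAT was present in FBLN5, FN1 and THBS1, 3 of 9, beside 34.6% of all. The AP-1 motif TGANTCA was found in 1 of 9, POSTN, beside 7.71% of all, and the CArG box of serum response factor in 0 of 9, beside 1.29%. FBLN5 has a pair of entries, which are counted as 1 with a match in either, while the shares of all promoters count each entry by itself. A match describes the letters of the window and no binding was measured.

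SPARC, a collagen-binding calcium protein also called osteonectin, was among the most abundant messages of these cells. SPARC (ENSG00000113140.11; chromosome 5 at 151661096 to 151687165, minus strand) measured 486 and 483 RPKM in KO clones 66 and 69 with 4-OHT, against 948 and 881 RPKM without it. In WT clones 15 and 54 it measured 718 and 582 RPKM with 4-OHT, against 1179 and 1104 RPKM without it. The groups with and without 4-OHT do not overlap in either genotype. SPARC fell 1.89-fold in KO (log2 -0.92 ± 0.11, SE; limma adjusted p = 0.000294) and 1.76-fold in WT (log2 -0.82 ± 0.11, limma adjusted p = 0.000679). Periostin (POSTN, ENSG00000133110.15; chromosome 13 at 37562583 to 37598844, minus strand), a matricellular protein of collagen-rich tissue, had 0 reads in all 8 libraries. At 0 reads, counting error alone leaves room for 3, which is 0.0375 to 0.0423 RPKM. No difference in POSTN was detectable at this depth.

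Of the elastic fibre core, microfibrils were represented and tropoelastin was not. FBN1 (ENSG00000166147.13; chromosome 15 at 48408306 to 48645849, minus strand) measured 77.3 and 63.3 RPKM in KO clones 66 and 69 with 4-OHT, against 116 and 98.4 RPKM without it. In WT clones 15 and 54 it measured 57.5 and 58.0 RPKM with 4-OHT, against 82.8 and 96.7 RPKM without it. The groups with and without 4-OHT do not overlap in either genotype. FBN1 fell 1.53-fold in KO (log2 -0.61 ± 0.13, SE; limma adjusted p = 0.00511) and 1.55-fold in WT (log2 -0.63 ± 0.13, limma adjusted p = 0.00542). ELN (ENSG00000049540.17; chromosome 7 at 74027789 to 74069907, plus strand) had 2 and 0 reads in KO clones 66 and 69 with 4-OHT and 1 and 0 reads in WT clones 15 and 54 with 4-OHT. Without 4-OHT it had 2 and 0 reads in the KO clones and 2 and 5 reads in the WT clones. These 12 reads over all libraries are too few to order the groups, and 3 reads amount to 0.0304 to 0.0343 RPKM.

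Fibulins link elastic fibres, basement membranes and fibronectin. FBLN1 (ENSG00000077942.19; chromosome 22 at 45502238 to 45601135, plus strand) measured 113 and 98.3 RPKM in KO clones 66 and 69 with 4-OHT, against 216 and 231 RPKM without it. In WT clones 15 and 54 it measured 102 and 105 RPKM with 4-OHT, against 227 and 245 RPKM without it. FBLN1 fell 2.12-fold in KO (log2 -1.09 ± 0.09, SE; limma adjusted p = 5.54e-05) and 2.28-fold in WT (log2 -1.19 ± 0.09, limma adjusted p = 5.61e-05). The treated groups are close together and far below the untreated ones in each genotype.

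FBLN5 (ENSG00000140092.14; chromosome 14 at 91869412 to 91947987, minus strand), which tethers tropoelastin to cells and to crosslinking enzymes, measured 28.9 and 21.3 RPKM in KO clones 66 and 69 with 4-OHT, against 49.1 and 47.5 RPKM without it. In WT clones 15 and 54 it measured 35.6 and 33.9 RPKM with 4-OHT, against 37.8 and 46.6 RPKM without it. The WT groups are next to each other, with clone 15 nearly level. FBLN5 fell 1.94-fold in KO (log2 -0.96 ± 0.15, SE; limma adjusted p = 0.00138). In WT its log2 difference was -0.27 ± 0.15 (limma adjusted p = 0.183), with a 95% interval of -0.63 to 0.09.

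**Figure D2:**
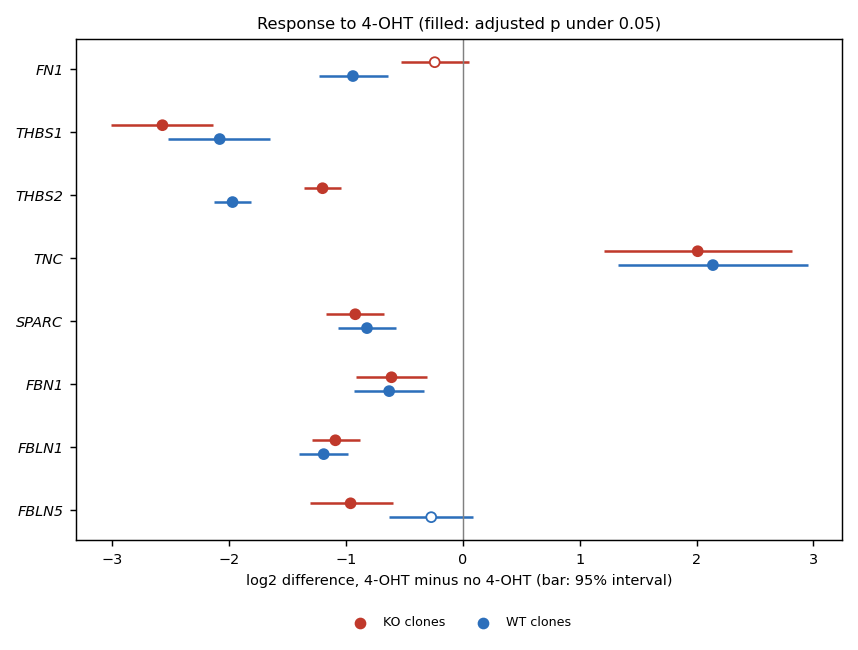
Log2 difference between libraries with and without 4-OHT (x axis) for each of the 8 tested genes, in KO and WT clones, with 95% intervals. Filled points passed the adjusted p threshold of 0.05. TNC lies at 2.01 and 2.14, and 6 genes in each genotype lie below 0 with filled points.

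On the RPKM scale, which corrects for length, THBS1 was the highest of the set without 4-OHT in each genotype, followed by SPARC, FN1 and FBLN1, and TNC was the lowest of the 8 tested genes. With 4-OHT, SPARC averaged 484.5 ± 2.33 RPKM and THBS1 464 ± 19.6 in KO, and 650 ± 96.6 and 526 ± 130 in WT (SD, n = 2 clones). The SPARC and THBS1 values overlap in WT and lie next to each other without overlap in KO. TNC averaged 76.0 ± 16.4 RPKM in KO and 79.3 ± 4.87 RPKM in WT with 4-OHT, against 18.7 ± 3.93 and 19.3 ± 10.3 RPKM without it. It was then higher than FBN1, THBS2 and FBLN5 on average, although its KO values overlap those of FBN1 (70.3 ± 9.87 RPKM).

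KO and WT clones were first compared without 4-OHT. None of the 8 tested genes was called between KO and WT clones by limma, where 6.32% of all genes were called, 2.58% higher and 3.74% lower. That share rests on single libraries, as the 1046 calls over all genes became 5 without KO clone 69, 23 without KO clone 66, 380 without WT clone 54 and 1849 without WT clone 15, all lacking 4-OHT, and 469 and 464 without KO clones 66 and 69 with 4-OHT. The count of 0 among the 8 genes held in each of these fits. Unadjusted p was below 0.05 for 2, FN1 and SPARC, and limma-voom called 0. SPARC averaged 914 ± 47.3 RPKM in KO and 1141 ± 52.6 RPKM in WT (log2 -0.32 ± 0.11, SE; limma adjusted p = 0.118). FN1 averaged 268 ± 28.0 RPKM in KO and 334.5 ± 35.7 RPKM in WT (log2 -0.32 ± 0.12, limma adjusted p = 0.167). The 95% intervals were -0.57 to -0.07 and -0.61 to -0.03. THBS1 averaged 2766 ± 277 RPKM in KO and 2211 ± 397 RPKM in WT (log2 0.33 ± 0.19, limma adjusted p = 0.311). The interval of TNC, -0.76 to 0.86, was the widest of the 8.

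With 4-OHT, THBS2 was higher in KO and SPARC lower, 2 of 8 genes, where 14.4% of all genes were called, 6.70% higher and 7.65% lower. The 2375 calls over all genes became 168 without KO clone 69, 852 without KO clone 66, 358 without WT clone 15 and 1357 without WT clone 54 with 4-OHT, and 1382 and 1383 without KO clones 66 and 69 lacking 4-OHT. Leaving out either WT library lacking 4-OHT raised the number of calls over all genes instead. THBS2 averaged 52.8 ± 0.386 RPKM in KO and 33.0 ± 0.293 RPKM in WT (SD, n = 2 clones). The difference was 1.60-fold (log2 0.68 ± 0.07, SE; limma adjusted p = 0.00404), and it was called in all 14 alternative fits. SPARC averaged 484.5 ± 2.33 RPKM in KO and 650 ± 96.6 RPKM in WT, 1.33-fold lower (log2 -0.42 ± 0.11, SE; limma adjusted p = 0.0428). That call held in 6 of 14 alternative fits. It ended without scaling by TMM (limma adjusted p = 0.0725), without the filter on low values (0.0978) and with only the 4 libraries compared (0.0648). It also ended without WT clone 15 with 4-OHT, where the difference shrank to log2 -0.25 (limma adjusted p = 0.187). It ended without KO clone 66 (0.14) or KO clone 69 (0.195) with 4-OHT, and without KO clone 66 (0.0783) or 69 (0.079) lacking 4-OHT. Apart from WT clone 15, the log2 difference in these fits stayed at -0.42 to -0.40.

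FN1 averaged 228 ± 29.7 RPKM in KO and 174.5 ± 8.82 RPKM in WT with 4-OHT (log2 0.38 ± 0.12, SE; limma adjusted p = 0.0873), with a 95% interval of 0.09 to 0.67. FBLN5 averaged 25.1 ± 5.34 RPKM in KO and 34.8 ± 1.20 RPKM in WT with 4-OHT (log2 -0.48 ± 0.15, SE; limma adjusted p = 0.0773), with an interval of -0.84 to -0.13. Neither passed, and the KO and WT values do not overlap for either gene. With limma-voom both passed (adjusted p = 0.0378 for FN1 and 0.0403 for FBLN5). FBLN5 also passed without KO clone 66 with 4-OHT (log2 -0.70, limma adjusted p = 0.0438), and without KO clone 69 with 4-OHT its difference shrank to log2 -0.25 (limma adjusted p = 0.358). FBLN1, TNC and THBS1 had log2 differences of 0.03, -0.08 and -0.16, with intervals of -0.18 to 0.23, -0.88 to 0.73 and -0.59 to 0.28.

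**Figure D3:**
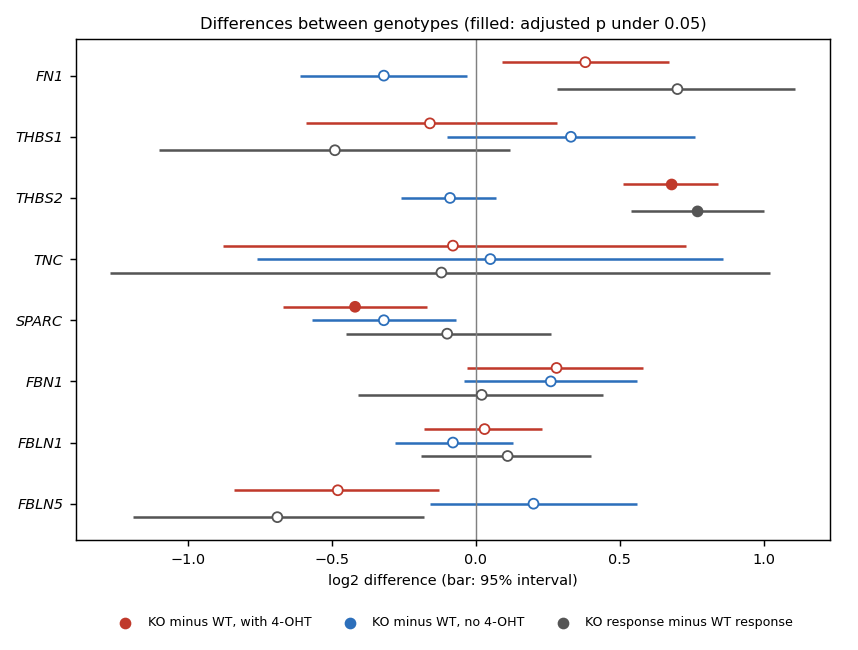
Log2 differences between genotypes (x axis) for each of the 8 tested genes, with 95% intervals, as KO minus WT with 4-OHT, KO minus WT without it, and the KO response minus the WT response. Filled points passed the adjusted p threshold of 0.05. They are THBS2 with 4-OHT at 0.68, THBS2 in the difference of responses at 0.77, and SPARC with 4-OHT at -0.42.

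The difference between the 4-OHT responses was tested directly. THBS2 fell less in KO than in WT, with a difference of responses of log2 0.77 ± 0.10 (SE; limma adjusted p = 0.0071), the 1 gene of 8 that was called where 7.44% of all genes were, 4.36% with a positive difference and 3.08% with a negative one. The 1230 calls over all genes became 282 and 587 without KO clones 69 and 66 and 462 without WT clone 15 with 4-OHT, and 324, 373 and 2123 without KO clone 69, KO clone 66 and WT clone 15 lacking 4-OHT. THBS2 was called in all 14 alternative fits. FN1 had a difference of 0.70 ± 0.18 (SE; limma adjusted p = 0.0592), so the call of its fall in WT and not in KO is not by itself a difference between genotypes. With the clone as a block FN1 was called (limma adjusted p = 0.0399), as it was with limma-voom (0.0176) and without the untreated library of WT clone 15 (0.0308). FBLN5 had a difference of the opposite sign, -0.69 ± 0.22 (SE; limma adjusted p = 0.103), and passed in 0 of 14 alternative fits. FBN1 had 0.02 ± 0.18 and FBLN1 0.11 ± 0.12, with intervals of -0.41 to 0.44 and -0.19 to 0.40. These values share the spread of the same 8 libraries.

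Profiles over the 8 libraries were compared as Pearson r of log2(RPKM + 0.1), as a description, since all 8 libraries share the contrast of 4-OHT. TNC ran opposite to the other 7 genes, with r of -0.93 with FBLN1 and -0.67 with FBLN5 as the extremes. THBS1 was most like FBLN1 within the set (r = 0.97) and most like TGFBI among the related matrix genes (r = 0.99). THBS2 was most like FBLN1 (r = 0.95) and, among related genes, fibulin 2 (FBLN2, r = 0.99). FN1 was most like THBS2 (r = 0.91) and the protease inhibitor TIMP1 (r = 0.95), and FBN1 most like THBS2 (r = 0.91) and the collagen chaperone FKBP10 (r = 0.96). SPARC was most like FBLN1 (r = 0.90) and SPOCK1 (r = 0.98), FBLN1 most like SDC2 among related genes (r = 0.99), and FBLN5 most like THBS1 (r = 0.86) and MMP2 (r = 0.96). The urokinase gene PLAU was the related gene most like TNC (r = 0.97).

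Partners in elastic fibres and microfibrils fell more often than they rose. Of the 25 tested partners, 15 were called lower and 4 higher in KO (median log2 -0.79). In WT, 14 were called lower and 3 higher (median -0.67), and both medians stood beside 0.00 for all tested genes. Over all tested genes, 26.9% were called lower and 28.7% higher in KO, and 23.7% and 25.2% in WT. EFEMP2, the fibulin 4 gene that elastic fibres need, fell 3.13-fold in KO, with 49.4 ± 1.1 RPKM with 4-OHT against 155 ± 13 without it, and 2.83-fold in WT, with 55.7 ± 2.0 against 158 ± 3 (limma adjusted p = 7.58e-06 and 1.51e-05). LTBP1, which holds latent TGF-beta in the matrix, rose 12.4-fold in KO, with 29.2 ± 2.4 RPKM against 2.27 ± 0.28, and 10.3-fold in WT, with 18.8 ± 1.3 against 1.76 ± 0.48 (limma adjusted p = 9.63e-06 and 1.68e-05). LTBP3 fell 4.33-fold in KO and 4.27-fold in WT. FBLN2 was 1.56-fold higher in KO than WT with 4-OHT (limma adjusted p = 0.0229), with 55.8 ± 0.8 RPKM in KO and 36.0 ± 5.8 in WT. The crosslinking enzyme LOX was 2.13-fold higher in KO than WT without 4-OHT (limma adjusted p = 0.0261). It averaged 69.2 ± 10.97 RPKM in KO and 32.9 ± 9.1 in WT without 4-OHT. Its responses differed (log2 -1.33 ± 0.28, limma adjusted p = 0.0352). Calls of single genes in this list and the lists that follow were not checked in the alternative fits.

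Other matricellular and adhesive glycoproteins fell more often than they rose. Of 35 tested, 23 were called lower and 4 higher in KO (median log2 -1.15), and 8 were not called. In WT, 22 were called lower and 4 higher (median -1.16), and 9 were not called. The shares of all tested genes were 26.9% lower and 28.7% higher in KO, and 23.7% and 25.2% in WT. SLIT2 fell 9.27-fold in KO and 7.53-fold in WT, the proteoglycan SPOCK1 8.53-fold and 5.74-fold, and the milk fat globule protein MFGE8 4.94-fold and 3.15-fold, all with limma adjusted p of 4.6e-05 or lower. CCN5 had 0 reads in each library with 4-OHT, at least 10-fold lower in KO and at least 7.74-fold lower in WT when 3 reads per library are taken as the floor. CTHRC1 was 3.42-fold higher in KO than WT with 4-OHT, with 23.2 ± 3.0 RPKM in KO and 6.70 ± 0.08 in WT (limma adjusted p = 0.0019). CCN1 was 1.48-fold lower in KO than WT with 4-OHT (44.4 ± 0.9 RPKM in KO and 65.7 ± 2.1 in WT, limma adjusted p = 0.00705). CCN2 averaged 28.5 ± 3.84 RPKM with 4-OHT against 110 ± 0.763 without it in KO, and 41.1 ± 2.72 against 76.0 ± 11.4 in WT, and its fall was larger in KO (difference of responses log2 -1.07 ± 0.18, limma adjusted p = 0.0172).

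Receptors of these glycoproteins were called in either direction about equally. Of 19 tested, 8 were called lower and 9 higher in KO (median log2 0.17). In WT, 7 were called lower and 7 higher (median 0.06). Beside these, 26.9% of all tested genes were called lower and 28.7% higher in KO, and 23.7% and 25.2% in WT. The syndecan SDC2 fell 5.55-fold in KO and 4.78-fold in WT, and ITGAV, a subunit of vitronectin receptors, fell by 0.99 in KO and 1.04 in WT on the log2 scale. PLAUR, counted in this list although it is the receptor of urokinase, rose 2.81-fold in KO and 2.58-fold in WT. The reelin receptor LRP8, which also binds thrombospondin 1, rose 5.25-fold in KO and 4.16-fold in WT. ITGB3, the beta 3 integrin subunit, was lower in KO than WT with 4-OHT (1.84 ± 0.32 RPKM in KO and 8.78 ± 0.64 in WT, 4.61-fold, limma adjusted p = 0.00286) and without it (0.732 ± 0.127 and 2.77 ± 0.45 RPKM, 3.45-fold, limma adjusted p = 0.00771).

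Of 26 tested proteases, inhibitors and regulators of these genes, 14 were called lower and 6 higher in KO (median log2 -0.68). In WT, 13 were called lower and 8 higher (median -0.50). Among all tested genes, 26.9% were called lower and 28.7% higher in KO, and 23.7% and 25.2% in WT. PLAU rose 79.2-fold in KO, with 634 ± 37 RPKM with 4-OHT against 7.90 ± 0.32 without it, and 39.8-fold in WT, with 680 ± 64 against 18.1 ± 8.9 (limma adjusted p = 6.98e-06 and 1.65e-05). The membrane protease MMP14 rose 4.39-fold in KO and 4.38-fold in WT, and TIMP3, an inhibitor of metalloproteases, 3.98-fold and 3.27-fold. ADAMTS1 fell 33.4-fold in KO and 8.45-fold in WT, with a difference of responses of log2 -1.98 ± 0.28 (limma adjusted p = 0.00918). TGFBR1, a receptor of TGF-beta, was 1.53-fold higher in KO than WT with 4-OHT (limma adjusted p = 0.00954) and 1.51-fold higher without it (0.0175).

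**Figure D4:**
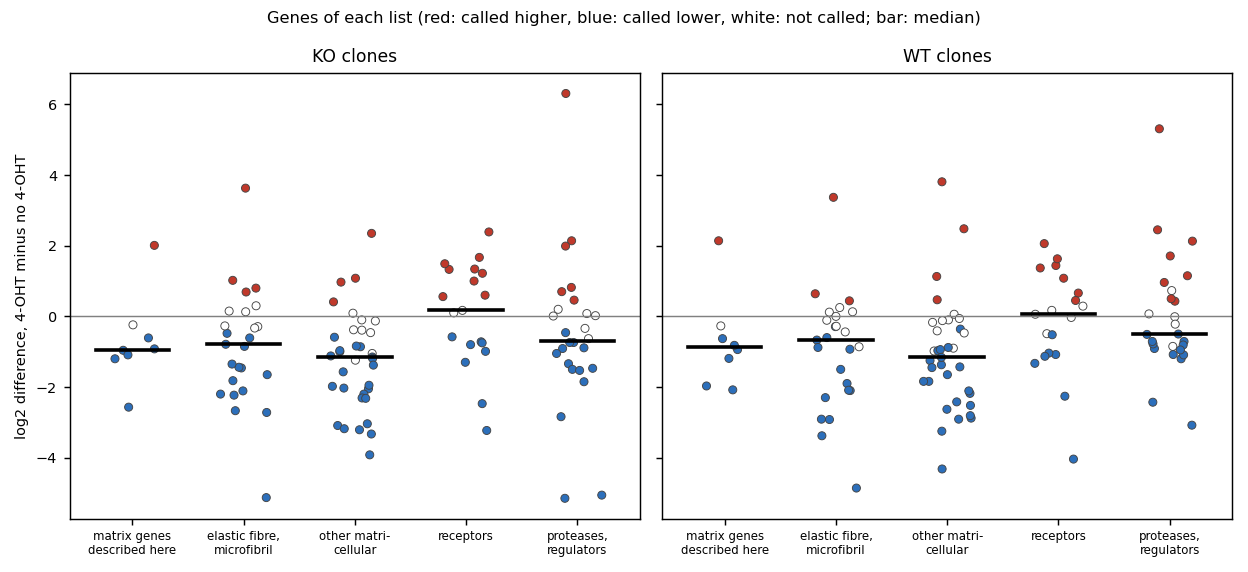
Log2 difference between libraries with and without 4-OHT (y axis) for the tested genes of the set and of 4 related lists, in KO clones (left) and WT clones (right). Each dot is a gene, coloured where it was called, and the bar is the list's median, which is -0.94 in KO and -0.88 in WT for the set and 0.17 in KO and 0.06 in WT for the receptors.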

How the data were processed

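RNA of 8 libraries was described by 1 table of 58870 genes. The authors deposited RPKM values, made before deposit by dividing the reads of each gene by the length of its listed transcript and by the library total, as the whole reads recovered from the values show, although the table is named for counts. STAR, featureCounts, edgeR and GRCh38 are named in the submitters' processing notes. Their versions, the strand setting and the annotation release were not given in the sources used here.

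For 51380 genes, values were multiplied back by transcript lengths listed in GENCODE 29 and by library totals (22057911 to 24908491 reads). For these genes 100% of values above 0 became whole reads, with a tolerance of 0.1 read. The lengths of 6676 other genes, SPARC and FBLN1 among them, were inferred from the values themselves. Those genes are not part of that share. The 45 duplicate rows of Y copies in pseudoautosomal regions were not used. Limits drawn from 0 reads cover counting error only.

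RPKM were divided by TMM factors computed on the recovered reads (0.9402 to 1.035). Genes reaching 10 reads at the median library size in at least 2 libraries, and 15 reads in total, were kept (16542). Group means were fitted to log2(RPKM + 0.1) over all 8 libraries with limma 3.58.1 (R 4.3.3; trend and robust moderation, 4 residual degrees of freedom), after the code was tested on simulated data. Tests were two-sided, with Benjamini-Hochberg adjustment across every tested gene. Folds come from this log2 scale and understate the differences of low genes. Means ± SD are over 2 clones.

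The members and lists were chosen with earlier results of these data known. All 10 members are described. From each related list the genes named are among the 4 called genes of smallest p in a contrast, or were named for likeness. Clone numbers pair libraries with and without 4-OHT, because both come from the same clone, and deviations from group means correlated at 0.00535 in KO and 0.309 in WT. Alternatives were library totals only, a pseudocount of 1, no filter, the clone as a block, only the 4 libraries compared, limma-voom on the recovered reads, no signal recognition particle RNA, and leaving out each library.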

Additional observations from a re-analysis of the deposited data

Results flagged for a closer look

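THBS2 was flagged because its response to 4-OHT differed between the genotypes in the test of the difference itself (log2 0.77 ± 0.10, SE; limma adjusted p = 0.0071; range over 14 alternative fits 0.000951 to 0.0462). THBS2 fell in all 4 clones, by log2 differences of -1.25 and -1.16 in KO clones 66 and 69 and of -2.01 and -1.94 in WT clones 15 and 54. With 4-OHT the sum of the 6 proliferation markers was also higher in KO, at 309 and 310 RPKM, than in WT, at 155 and 192 RPKM. Without 4-OHT that sum was lower in KO, at 66.7 and 70.0 RPKM, than in WT, at 125 and 168 RPKM. In KO it rose with 4-OHT, where THBS2 fell. The part of these markers in the THBS2 result was not tested.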

How the results depend on the processing

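The counts of called genes in the 4-OHT response, 7 in KO and 7 in WT, and the count of 0 between KO and WT without 4-OHT, did not move under any alternative run. Between KO and WT with 4-OHT the count of 2 became 1 with library totals only, 1 without the filter, 1 with only the 4 libraries compared and 4 with limma-voom, and 1 to 2 when a library was left out. For the difference of responses the count of 1 became 2 with the clone as a replicate block and 2 with limma-voom, and 1 to 2 when a library was left out. In the KO and WT responses, the other comparisons in which the block was fitted, the counts stayed at 7. It was not fitted between KO and WT, whose clones differ. The cause of these moves was not tested. Of 576 estimates for single genes under the alternatives, 13 changed sign, each when a library was left out and none of them called. Their leave-one-out ranges of log2 values were -0.52 to 0.62 for TNC and KO minus WT without 4-OHT, -0.30 to 0.16 for TNC with 4-OHT, -0.40 to 0.11 for THBS1 with 4-OHT, and -0.07 to 0.14 for FBLN1 with 4-OHT. For the difference of responses they were -0.69 to 0.44 for TNC, -0.24 to 0.06 for SPARC and -0.13 to 0.17 for FBN1. A group left with 1 library was taken to vary like the other groups. With 2 clones a group, small differences cannot be resolved, and depth limits ELN and POSTN.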
